A study of Mus musculus with 2 samples.

Results

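Transcripts of the Hox cluster genes were compared between Mlesico and Mle29c, 2 mouse epithelial cell lines, with 1 array per line. Members were all probe sets (groups of short array probes) whose single annotated gene is one of the numbered genes of clusters Hoxa to Hoxd. That gave 48 of the 45101 probe sets on the array, for 33 of the 39 Hox genes in the gene table of the mouse GRCm38.p6 assembly, and of 18193 genes with a probe set in all. The other 6 had no probe set of their own here. Of these, Hoxb8 and Hoxd4 are seen only through probe sets shared with another Hox gene. The labels name each line but not how it was made, so neither its genotype nor the direction of any miR-29c change is known from them. Both lines were cultured in one medium with serum and had no other treatment. The series title concerns miR-29c, lung fibrosis, and the renewal and death of epithelial cells. Because each line is 1 array, no value below has a replicate error or a p-value.

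Hox genes encode homeodomain transcription factors that give cells their position along the body axis. They lie in 4 clusters, copies of one ancestral row, on chromosomes 6 (Hoxa), 11 (Hoxb), 15 (Hoxc) and 2 (Hoxd). Genes of the same number in different clusters are paralogs. Low numbers are anterior and retinoic acid can induce them, while high numbers are posterior. Polycomb proteins keep clusters silent, Trithorax proteins keep active genes on, and cultured cells tend to hold the Hox pattern of their origin. In developing lung, genes of the Hoxa and Hoxb clusters are the best known, Hoxa5 above all.

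Sequences of the 2 genes with the highest ratios, and of Hoxd9 next to Hoxd8, at a log2 ratio of 0.87, show the regions in question. The mature microRNA for which the series is named is shown with its seed, bases 2 to 8, in capitals. The promoters are the 250 bases before the annotated start, 5′ to 3′, and capitals mark AGGTCA or its reverse complement TGACCT, the core element bound by retinoic acid receptors. Sequences are from RefSeq, build GRCm38.p6.
miR-29c-3p (chr1:195037600-195037621, plus strand): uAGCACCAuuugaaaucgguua
Hoxd8 (chr2:74704365-74704614, plus strand): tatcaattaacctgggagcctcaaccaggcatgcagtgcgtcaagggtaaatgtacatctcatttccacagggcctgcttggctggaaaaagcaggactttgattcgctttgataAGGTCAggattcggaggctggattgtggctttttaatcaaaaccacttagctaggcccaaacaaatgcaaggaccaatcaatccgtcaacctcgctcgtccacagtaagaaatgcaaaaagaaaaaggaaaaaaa
Hoxc4 (chr15:103034145-103034394, plus strand): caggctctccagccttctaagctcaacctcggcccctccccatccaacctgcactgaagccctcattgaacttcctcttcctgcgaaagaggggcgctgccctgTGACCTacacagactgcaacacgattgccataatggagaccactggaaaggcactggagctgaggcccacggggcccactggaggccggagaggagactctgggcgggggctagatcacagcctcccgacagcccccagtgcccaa
Hoxd9 (chr2:74697513-74697762, plus strand): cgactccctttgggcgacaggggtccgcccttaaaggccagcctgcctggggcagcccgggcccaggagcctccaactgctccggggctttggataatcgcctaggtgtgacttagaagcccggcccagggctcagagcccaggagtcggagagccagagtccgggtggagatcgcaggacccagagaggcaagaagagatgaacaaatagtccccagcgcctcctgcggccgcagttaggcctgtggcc
Hoxd9 has no AGGTCA in its window. Of 24 promoter windows for 22 Hox genes, 6 hold the motif, those of Hoxb4, Hoxc4, Hoxd3, Hoxd4, Hoxd8 and Hoxd10, against 4607 of all 32851 windows in the table. Hoxb4 and Hoxd3 stood within 2-fold in these arrays, so the motif is found before genes with large and with small ratios. The motif GGGCGG, a GC box, was found before Hoxc4 and Hoxd9 but not Hoxd8, and in 32.7% of all windows. TGATNNAT, a joint site of Hox and Pbx proteins, was in none of the 3 windows and in 7.68% of all. Each motif was searched on both strands, and a match is only a run of letters. The Hoxd8 window holds 6 CG dinucleotides and the Hoxc4 window 8, near the median of 6 over all windows, whereas the Hoxd9 window holds 13. The median over Hox windows was 12.5. Hoxb2 has no window in the table.

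The deposited values are log signals that the authors centred on the midpoint of both arrays, so the 2 values of a probe set mirror each other. Each ratio below is on the log2 scale, positive where Mle29c was higher. The signal level was lost by centring, but rounding of the stored numbers keeps a trace of it. From that trace each probe set was classed by its mean log2 signal: high at 8 or more, middle from 4 to 8, and low below 4. For most probe sets the class also drew on a level distribution fitted among probe sets with differences of similar size. Class and ratio are therefore not independent. Ratios of low probe sets vary widely: 59.8% of those for single genes differ by 2-fold or more, a share that may partly come from the class rule. Genes with any high or middle probe set were taken as measured, and their value was the median ratio over such probe sets. On simulated data with known levels, 89.7% of probe sets called measured truly were, and 82.0% of those also past 2-fold. The simulated levels were drawn from the distribution fitted to these arrays and rounded by the same model. These shares may therefore be too favourable. A measured call does not by itself show expression, since 40.0% of 80 probe sets for olfactory and vomeronasal receptors, which such cells should lack, were called so too.

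Hoxd8, Hoxc4 and Hoxb2, each in a different cluster, had far higher signal in Mle29c. The Hoxa cluster, the best measured, held no gene at least 2-fold higher, and its posterior gene Hoxa11 was the only measured Hox gene at least 2-fold lower. Next to Hoxb2, Hoxb3 was at 1.10, and next to Hoxd8, Hoxd9 was at 0.87. Hoxb1 beside Hoxb2 and Hoxc5 beside Hoxc4 were in the low class, and Hoxd4 had no probe set of its own. Of 33 Hox genes 22 were measured. Of these, 4 were at least 2-fold higher in Mle29c, where 7.71% of all 14756 measured genes were, and 1 was at least 2-fold lower, where 6.61% were. At 16-fold, 3 of the 22 were higher, where 0.603% of all measured genes were. Hoxb2, over most of its level range Hoxc4, and over part of its range Hoxd8, counted as measured through Mle29c alone and so had to differ. Nothing is read from these counts. At 1.5-fold, 9 were higher and 3 lower, where 16.3% and 14.9% of all measured genes were, and at 4-fold none was lower, where 1.31% were. Were the values natural logs, 8 would be at least 2-fold higher, where 13.4% would be. The median over the 22 was 0.49, against 0.01 over all measured genes. Centred within chromosomes, the median of the 22 was 0.20. Of the 22, 16 were above 0 and 6 below, against 7437 and 7319 of all 14756 measured genes. The 22 include Hoxd8, Hoxc4 and Hoxb2, so nothing is read from these values either. The 17 genes within 2-fold had ratios from -0.62 to 0.87, with 12 above 0.

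**Figure D1:**
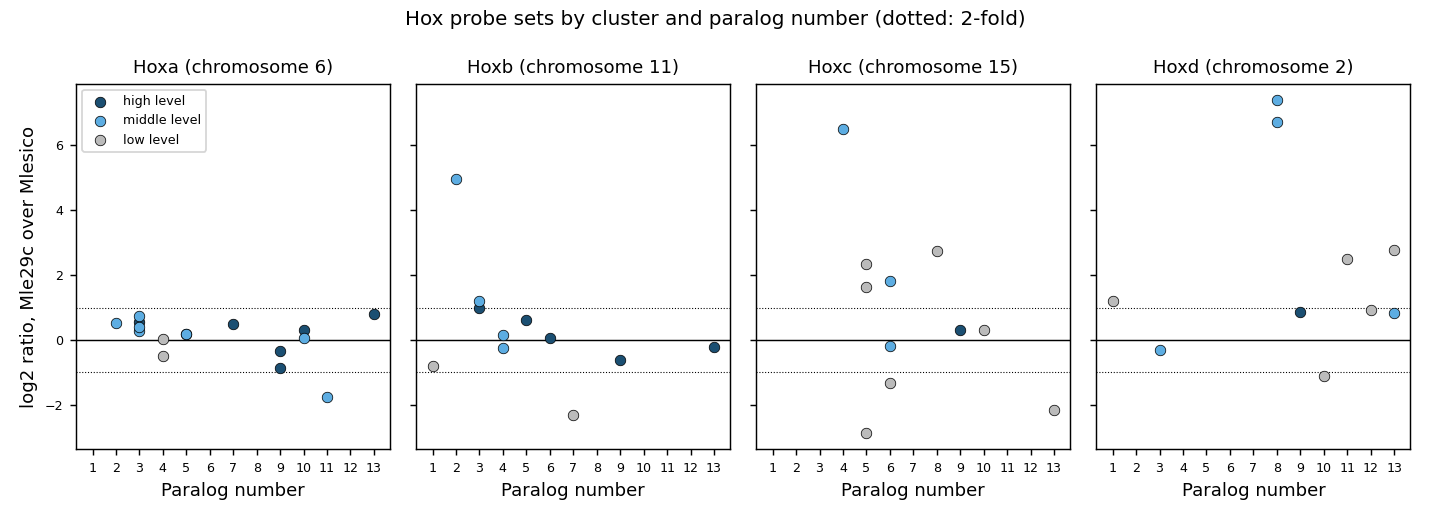
Log2 ratio of Mle29c over Mlesico for each of the 48 Hox probe sets (points), by cluster (panels) and paralog number, coloured by recovered level class; dotted lines mark 2-fold. Hoxd8, Hoxc4 and Hoxb2 lie between 4.96 and 7.38, and most other high and middle points lie between the dotted lines.

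Hoxd8, a factor of the trunk level that acts in skeletal patterning, was the highest of the family. Its first probe set had centred values of -3.36 in Mlesico and 3.36 in Mle29c, a log2 ratio of 6.72, and its other probe set had -3.69 and 3.69, a ratio of 7.38. Both probe sets were far higher in Mle29c, with a median of 7.05. For the first probe set the rounding places the log2 signal between 1.64 and 7.64 in Mlesico and between 8.36 and 14.36 in Mle29c. These are 1 range of the mean level, shifted down and up by the centred value, so they show where the signal lay and not how sure the difference is. The mean level of this probe set was in the middle class with a probability of 0.94. In Mlesico its signal thus probably lay in or close to the low class, so the fold has no settled size. The other probe set could be placed only loosely, with an 82.1% probability of being measured. Such ranges held the true level for 88.4% of simulated probe sets.

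Hoxc4, a factor of the neck and upper thorax that is also known from lymphocytes, had centred values of -3.24 in Mlesico and 3.24 in Mle29c. Its ratio was 6.49. The recovered log2 signal lay between 1.26 and 4.26 in Mlesico, mostly in the low range, and between 7.74 and 10.74 in Mle29c. Hoxb2, which patterns the hindbrain, had centred values of -2.48 and 2.48, a ratio of 4.96. Its recovered signal was between 1.52 and 3.52 in Mlesico and between 6.48 and 8.48 in Mle29c. For both genes the signal in Mlesico lay in or close to the low class, where ratios vary widely, and each value rests on 1 probe set. Neither was shown to be above background in Mlesico, so no fold is given.

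Hoxb3, the neighbour of Hoxb2 and likewise a hindbrain gene, was the fourth gene past 2-fold, but only just. Its probe sets had centred values of -0.60 and 0.60, and of -0.49 and 0.49, with ratios of 1.21 and 0.99. The median was 1.10. For scale, the SD between probe sets of 1 gene was 0.60, pooled over the 6905 genes that have several measured ones.

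Hoxa11, which is needed for limb, kidney and uterus, was the single measured Hox gene at least 2-fold lower in Mle29c. Its centred values were 0.88 in Mlesico and -0.88 in Mle29c, a ratio of -1.76 from 1 probe set. The probability that it was measured at all was 59.2%, with a recovered signal of 3.38 to 5.88 in Mlesico and 1.62 to 4.12 in Mle29c. It had the lowest such probability of the 5 genes. When a probability of 90% or more was required, a setting chosen after the values were seen, no Hox gene was left at least 2-fold lower. The higher ones were again 4, of 21 genes, but not the same 4: Hoxd8, Hoxc4 and Hoxb2 stayed, Hoxb3 came to 0.99, and Hoxc6 came to 1.82. No share over all genes is given for this setting, so nothing is read from its counts.

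**Figure D2:**
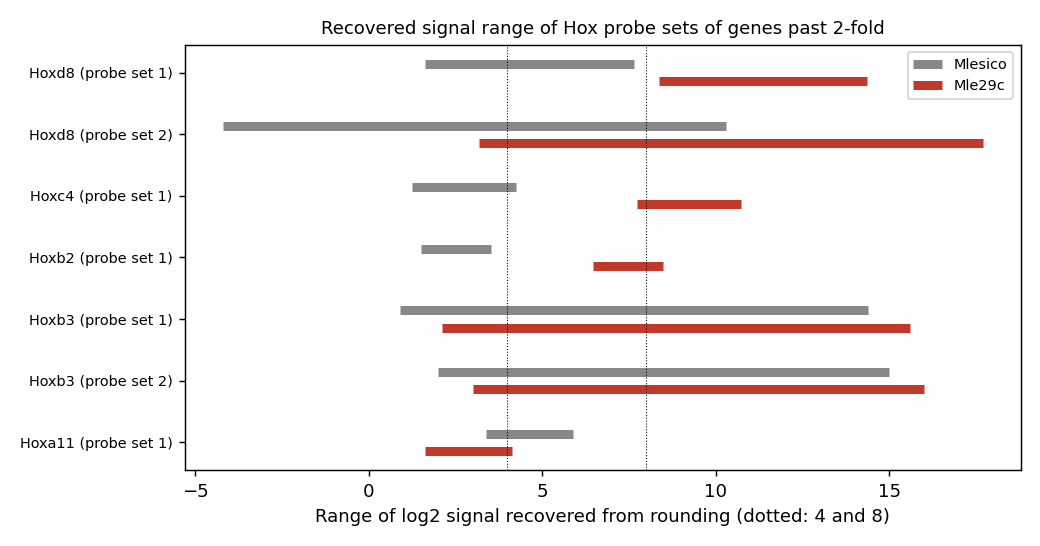
Range of log2 signal recovered from rounding for the 7 measured probe sets of the 5 Hox genes past 2-fold, in Mlesico (grey) and Mle29c (red); bars are ranges and dotted lines mark 4 and 8. Both bars of a probe set have the same width and lie apart by its ratio. In Mlesico the bar of Hoxb2 lies wholly below 4 and that of Hoxc4 reaches 4.26.

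Of 8 Hox genes with 2 or more measured probe sets, 6 had all on the same side of 0, against 55.9% of all such genes. The pooled SD was 0.51. The exceptions were Hoxb4, at -0.25 and 0.17, and Hoxc6, at -0.18 and 1.82. Hoxa4 and Hoxc5, with low probe sets only, also had them on both sides of 0. With so few genes, nothing is read from this count. Hoxc6, a thoracic factor, has another probe set in the low class at -1.33, so its value of 0.82 has no settled size.

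Hoxa genes formed the most even cluster. Of 9 with a probe set 8 were measured, and without Hoxa11 the other 7 ran from -0.59 to 0.79 with a median of 0.48. Hoxa2 stood at 0.52, Hoxa3 at 0.48 with all 4 probe sets between 0.29 and 0.72, and Hoxa7 at 0.51 in the one Hox probe set of a single gene that the rounding places in the high class with certainty. Hoxa5, a regulator of airway and alveolar development, was at 0.18 in both probe sets. Hoxa9 was the lowest of the 7 at -0.59 and Hoxa13, the most posterior, the highest at 0.79. Hoxa10 was at 0.18, and Hoxa4 was in the low class in both probe sets, at -0.48 and 0.02.

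These Hoxa ratios had a median near that of the chromosome around them. Genes of chromosome 6 had a median of 0.32 (775 measured genes), and the 10 measured genes on each side of the cluster had a median of 0.51, with 15 of 20 above 0. After subtraction of the chromosome's median, the Hoxa median was 0.01. The shift of the cluster is thus no larger than that of its chromosome, and the 2 could not be told apart.

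Hoxb genes lay on both sides of 0. Chromosome 11 had a median of -0.24 over 1206 genes, and the 20 neighbours of -0.29 with 15 below 0. Of 7 measured Hoxb genes 4 were above 0, with a median of 0.07, or 0.32 after centring on the chromosome. The ratios were uneven from anterior to posterior: Hoxb2 at 4.96, Hoxb3 at 1.10, Hoxb4 at -0.04, Hoxb5 at 0.62, Hoxb6 at 0.07, Hoxb9 at -0.62 and Hoxb13, a prostate and hindgut factor, at -0.20. At the anterior end, Hoxb1 was in the low class at -0.81, and the first neighbour beyond it, Skap1, was at -0.76. Hoxb7 was in the low class at -2.31, while a probe set shared by Hoxb7 and Hoxb8 was in the high class at -0.72. The antisense transcript Hoxb5os had a middle class ratio of -1.07, opposite in sign to Hoxb5. The gene table has Hoxb4 inside the span of Hoxb3, so their signals may not be fully separate. The annotated starts of Hoxa3 and Hoxd3 likewise lie upstream of those of Hoxa5 and of Hoxd4, so the same may hold there.

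Few Hoxc genes were measured. Hoxc4 at 6.49, Hoxc6 at 0.82 and Hoxc9 at 0.30 were above 0, as was chromosome 15 with a median of 0.36 over 583 genes, but the 20 neighbours of the cluster were not, with a median of -0.09. Next to Hoxc4, Hoxc5 had 3 low probe sets on both sides of 0, at -2.86, 1.63 and 2.33, and on the other side the repair gene Smug1 was at -0.36. Hoxc8 at 2.75, Hoxc10 at 0.31 and Hoxc13, a hair and nail factor, at -2.15 were all in the low class. The large ratio in this cluster thus stood at 1 gene of those measured.

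In the Hoxd cluster 4 of 8 genes were measured. On the posterior side of Hoxd8, Hoxd9 was at 0.87 and Hoxd13, a digit factor, at 0.82 in its middle probe set and 2.78 in its low one. On the anterior side Hoxd3 was at -0.29. Next to Hoxd8, overlapping Hoxd3, lies Hoxd3os1, whose 2 probe sets, both low, were at -2.98 and -2.65. Low probe sets of Hoxd1, Hoxd10, Hoxd11 and Hoxd12 stood at 1.21, -1.10, 2.50 and 0.91, and 2 probe sets shared by Hoxd3 and Hoxd4 at -1.39 and 1.47. Chromosome 2 had a median of 0.00 and the 20 neighbours of -0.20, so the surroundings did not share the ratio of Hoxd8. One neighbour, the cilium transport gene Ttc30a1, was at 4.05 from 1 probe set, with Ttc30b at -0.70.

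**Figure D3:**
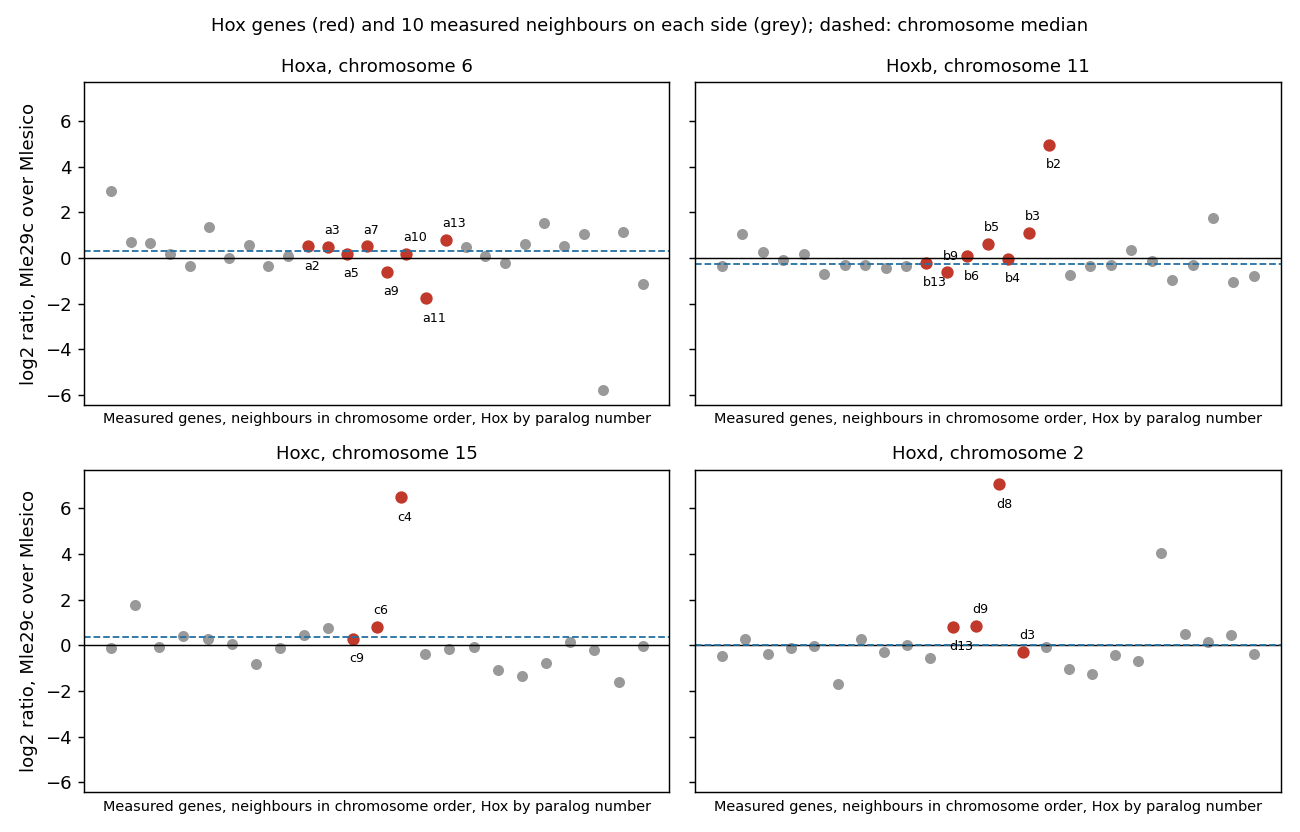
Log2 ratio of Mle29c over Mlesico for measured Hox genes (red, labelled by cluster letter and number, placed by paralog number) and the 10 nearest measured genes on each side (grey, in chromosome order); the dashed line is the chromosome's median. Hoxb2, Hoxc4 and Hoxd8 lie far above both neighbours and dashed line, while the Hoxa genes other than Hoxa9 and Hoxa11 lie within 0.79 of 0, around the dashed line at 0.32.

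By position, Hoxb2 was among the anterior genes, and Hoxc4 and Hoxd8 among the middle ones. All 3 counted as measured through Mle29c alone over all or part of their level ranges. Of 5 measured genes of positions 1 to 3, 2 were at least 2-fold higher (median 0.52), and of 8 of positions 4 to 8, again 2 (median 0.56). None of 9 posterior genes, positions 9 to 13, was at least 2-fold higher and 1 was lower (median 0.18). Of all measured genes 7.71% were at least 2-fold higher and 6.61% lower. Posterior probe sets in the low class, left out here, stood from -2.15 (Hoxc13) to 2.78 (Hoxd13). The order by position was not tested, each group holds few genes, and nothing is read from it. Paralogs differed most in groups 2 and 4. Hoxa2 stood at 0.52 beside Hoxb2 at 4.96, and Hoxb4 at -0.04 beside Hoxc4 at 6.49. Paralog group 9, the only one measured in all 4 clusters, stayed within 2-fold from -0.62 (Hoxb9) to 0.87 (Hoxd9). In group 8, Hoxd8 was the only gene measured on its own, beside low Hoxc8.

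The 11 Hox genes not measured had 16 low probe sets in all with those of Hoxc6 and Hoxd13, of which 11 were past 2-fold, 6 higher and 5 lower. Low probe sets pass 2-fold in 59.8% of cases over the array, so nothing is read from them. With every probe set kept, 9 of the 33 genes were at least 2-fold higher and 4 lower, beside a background of 12.4% and 10.9%.

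Partners and regulators of Hox genes mostly lay within 2-fold, as did all measured genes, of which 14.3% were past it. Among Hox cofactors of the Pbx, Meis and Pknox families, which bind DNA together with Hox proteins, 7 of 8 were within 2-fold (median -0.27). The exception was Pbx4 at -1.05. Pbx3 was at -0.94, Meis1 at -0.73 and Pbx2 at 0.57. Of 11 measured genes of retinoic acid synthesis, uptake and response, Stra6, a receptor for the retinol carrier, was at 1.76, and the others were within 2-fold (median 0.18). Rarb, a receptor gene that retinoic acid itself induces, was at -0.93. The degrading enzymes Cyp26a1 and Cyp26b1 were not measured, and neither were Aldh1a1, Crabp1 and Crabp2. The caudal factor gene Cdx2, which acts upstream of central Hox genes, was at -1.03, while Evx1 and Evx2, which flank Hoxa and Hoxd, were at -0.46 and 0.41.

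Genes of the Polycomb complexes had 2 of 26 measured members past 2-fold (median 0.17), beside the 14.3% of all measured genes. Cbx7, a reader of the repressive mark, was at 1.28, but its probe sets were at -0.04 and 2.61. Phf19, an accessory of the complex that writes the mark, was at -1.12. The catalytic subunit gene Ezh2 was at 0.48. All 14 measured genes of the Trithorax and demethylation list were within 2-fold (median 0.04), from Dpy30 at 0.27 to Kdm6a, a demethylase of the repressive mark, at -0.84. The activator Kmt2a was at 0.13. No measured gene of these 5 lists was 4-fold different. Of all measured genes only 1.44% were at least 4-fold higher and 1.31% lower, so nothing is read from this.

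**Figure D4:**
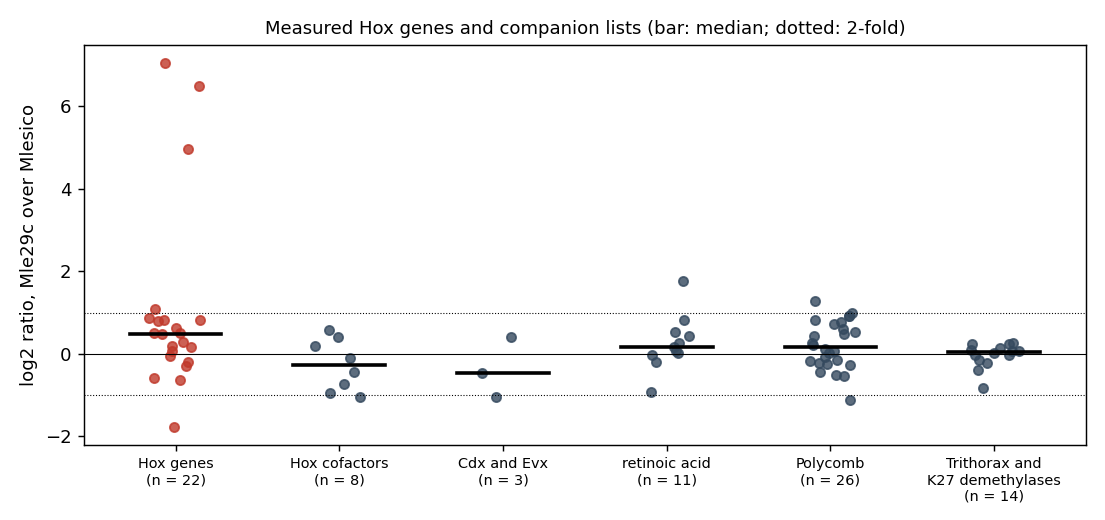
Log2 ratio of Mle29c over Mlesico for the 22 measured Hox genes (red) and the measured genes of 5 lists of cofactors and regulators (blue); bars are medians and dotted lines mark 2-fold. Hox medians lie at 0.49 and list medians between -0.46 and 0.18, and 3 Hox genes stand above all others.

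Of 11 epithelial markers 9 were measured, 3 of them in the high class: Krt8 at 0.63, Krt19 at -0.06 and Cldn3 at 0.36. Epcam was at -0.52, Cdh1 at 1.46, Krt7 at -1.20 and Esrp1 at -4.51. Of 7 lung epithelial markers 6 were measured, with a median of 0.33. The lung factor gene Nkx2-1 was at 0.31, Foxa1 at -0.04 and Foxa2 at -0.09. Abca3 was at 0.35, and Sftpb and Sftpc at 2.13 and 1.03, with Cebpa in the low class. Fibroblasts hold strong Hox patterns of their own. Of 10 fibroblast markers 7 were measured, from Col1a1 at -3.63 to Lum at 0.67. None was at least 2-fold higher in Mle29c, where 7.71% of all measured genes were, so nothing is read from this count. Pdgfrb, Tbx4 and Tbx5 were in the low class. Of 5 endothelial markers 4 were measured, Cdh5 at 0.05, Kdr at 0.01, Tek at -1.57 and Vwf at 1.40, with Pecam1 in the low class. Of 4 immune markers with a probe set, Cd68 was at -0.99 and Cd3e at 0.78, and Ptprc and Tyrobp were in the low class. The part of other cells in the Hox ratios was not tested.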

How the data were processed

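RNA of 1 Mlesico and 1 Mle29c culture was measured on 1 array each. Per the submitters' processing notes, MAS5 was used, with no version named there. The deposited values are log values, taken here as log2 (base not stated), which the authors centred on the midpoint of both arrays: each pair sums to 0 within rounding. Under a natural log every fold would be larger. Probe sets were named by the platform annotation of 2016, with symbols updated by gene number through a GRCm38.p6 gene table (34741 of 34945 single-gene probe sets found).

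Level classes were recovered by asking, for trial levels, whether single-precision arithmetic could give the deposited pair. The sum of both values settled 15884 probe sets. For the rest, the most probable class came from the rounding pattern and the level distribution fitted among probe sets with differences of similar size. Both ways were tested on simulated data, where 96.3% and 67.7% of classes were right. Those simulated levels were drawn from the same fitted distribution, so these shares may be too favourable. On the arrays, 92.1% of 101 ribosomal protein probe sets were measured, above the 40.0% of sensory receptor probe sets. The number of arrays limits the precision. Each array had 45101 probe sets (17574 high, 16126 middle, 11240 low), and no column of values was left unused.

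Hox genes past 2-fold were described singly, the others by range. Of each list up to 2 genes per side past 2-fold were named, or its highest and lowest; other genes named were chosen after their values were seen. Members, lists and level rule were chosen with earlier results of these data known. Neighbours are the 10 nearest measured genes on each side. Alternatives changed the level rule, summary, shared probe sets, centring and threshold. Python 3.11.15, numpy 2.4.6 and pandas 2.3.3 were used.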

Additional observations from a re-analysis of the deposited data

How the results depend on the processing

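Of 120 recomputed values 90 kept their count within 1.5 times or moved by less than the error between probe sets. No value past 2-fold changed sign, but 6 medians nearer 0 did. Hoxb came to -0.04 with no floor, and likewise with unsettled probe sets dropped, where only 1 Hoxb gene was left. Trithorax genes came to -0.0036 in the high class and -0.01 when centred within chromosomes. Posterior genes and cofactors came to the values below. Hoxd8, Hoxc4 and Hoxb2 are not in the high class and are lost when only that class is kept. Counts of Hox genes at least 2-fold higher and lower were 9 and 4 of 33 with no floor on level (background 12.4% and 10.9%). In the high class alone they were 0 and 0 of 13 genes. Where probe sets not settled by their sum were dropped, they were 2 and 0 of 9 genes, which leaves Hoxd8 and Hoxc6 and loses Hoxc4 and Hoxb2. The counts were 9 and 3 at 1.5-fold (background 16.3% and 14.9%), none was lower at 4-fold (1.31%), and 8 were higher under a natural log (13.4%). With a measured probability of 90% or more, an alternative chosen after the data were seen, 0 of 21 were lower. For the high class, settled and 90% settings no share over all genes is given, so nothing is read from those counts. With no floor, the medians were 0.31 for all clusters, 0.31 for Hoxc, 0.34 for middle positions and -0.59 for cofactors. In the high class they were 0.31, 0.30, 0.34 and 0.088, where the Hoxc value rests on 1 gene. With unsettled probe sets dropped they were 1.82 for Hoxc (1 gene), 1.16 for middle (4 genes) and 0.43 for posterior positions (2 genes). At the stricter probability Hoxc came to 1.82 (3 genes). Centring within chromosomes gave 0.20 for all clusters, 0.0087 for Hoxa, 0.32 for Hoxb, 0.46 for Hoxc, 0.19 for anterior and -0.065 for posterior positions. With 20 neighbours on each side, the Hoxd neighbours had a median of -0.0063. The cause of these shifts was not tested. No paired analysis was possible because each line has 1 array.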
